A study of Acrobeloides nanus with 194 samples.

Results

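P2 and EMS are the daughters of P1, the posterior cell of the embryo after the first cleavage, and they were compared at the 3-cell stage of Acrobeloides nanus. The cells were taken by title, which named 6 libraries as P2 and 5 as EMS. Of these 11, the 9 with a total of 10000 counts or more were used (5 of P2 and 4 of EMS), which is 4.64% of the libraries in the series. Acrobeloides nanus is a free-living nematode that reproduces by parthenogenesis, so the embryo starts without a sperm. The labels state no treatment and no genetic change for any embryo. Egg shells were taken off, the blastomeres were pulled apart by hand, and each was frozen alone before its RNA was amplified by CEL-Seq2, a method that gives every sample its own barcode and reads the 3′ ends of transcripts. The third cell of the same stage, AB, gave 7 libraries and is used here as the common reference for both sisters.

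In Caenorhabditis elegans, where these lineages are known best, EMS is the founder of the gut and of much of the mesoderm, whereas P2 keeps the germline fate and divides into C and P3. The P cells of that species are held transcriptionally silent by factors deposited in the egg, and the embryo at this stage runs largely on maternal RNA. Some maternal RNAs there come to lie in unequal amounts in sister cells. These statements are background from that species and not results of the present libraries.

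The deposited count table holds 16853 rows without identifiers, so a transcript goes by the number of its row, counted from the top of the table, and no gene can be named. For the same reason the cell labels could not be checked against marker genes. An early embryo has 1 P2 and 1 EMS cell, so libraries of the same cell come from different embryos, but the labels do not say whether a P2 and an EMS library came from the same embryo, nor do they give a batch. P-values measure the spread between these single-cell libraries. In whole-cell counts of this kind, less RNA per cell and poorer recovery of RNA from a cell cannot be told apart.

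The libraries of the sisters were of similar but uneven depth. The P2 libraries held 23755, 120632, 45287, 102244 and 56999 counts (replicates 1, 2, 6, 7 and 8). The EMS libraries held 201221, 133775, 98861 and 29131 counts (replicates 1, 6, 7 and 8). Replicate 4 of each cell, with 9664 and 9296 counts, fell under the minimum and is given only as values. With all 6 and 5 libraries, the mean log2 total of P2 was 0.42 below that of EMS (exact two-sided permutation p = 0.652, also 0.652 when adjusted over 5 such tests), which is within the spread of replicates.

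A single count was worth 42.1 CPM (counts scaled to an equal library total) in P2 replicate 1 and 34.3 CPM in EMS replicate 8, the shallowest library of each cell, against 4.97 CPM in EMS replicate 1. A level of 1 or 2 counts in a shallow library therefore cannot be separated from the lower levels of a deep one. The 3-count limit that a value of 0 allows was 126.3 CPM in P2 replicate 1 and 24.9 CPM in P2 replicate 2. The corresponding limit was 102.98 CPM in EMS replicate 8 and 14.9 CPM in EMS replicate 1. These limits cover counting error only.

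The number of transcripts detected did not separate the sisters. P2 libraries had 10980 ± 3112 rows with at least 1 count (SD, n = 5) and EMS libraries had 13211 ± 3238 (SD, n = 4), a difference of -2230 (exact permutation p = 0.333, two-sided, 0.556 after adjustment). After each library was thinned to 10000 counts, the P2 libraries showed 3344, 4733, 4961, 4547 and 4492 rows, in the order above. The EMS libraries showed 5513, 5542, 4635 and 4497 rows at that depth. P2 replicate 1 was lowest and the others of both cells overlapped, and the mean difference of -631 rows was not beyond the spread of replicates (exact permutation p = 0.190, two-sided, 0.476 after adjustment). The 100 most abundant rows of a library held 29% ± 12 of its counts in P2 and 23% ± 9.5 in EMS (SD, n = 5 and 4). The difference of 5.59 percentage points had an exact two-sided permutation p of 0.484 and an adjusted p of 0.605, and P2 replicate 1 stood highest at 49.6%. With 1 library left out, that difference ran from 0.44 points (without P2 replicate 1) to 9.82 points (without EMS replicate 8).

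**Figure D1:**
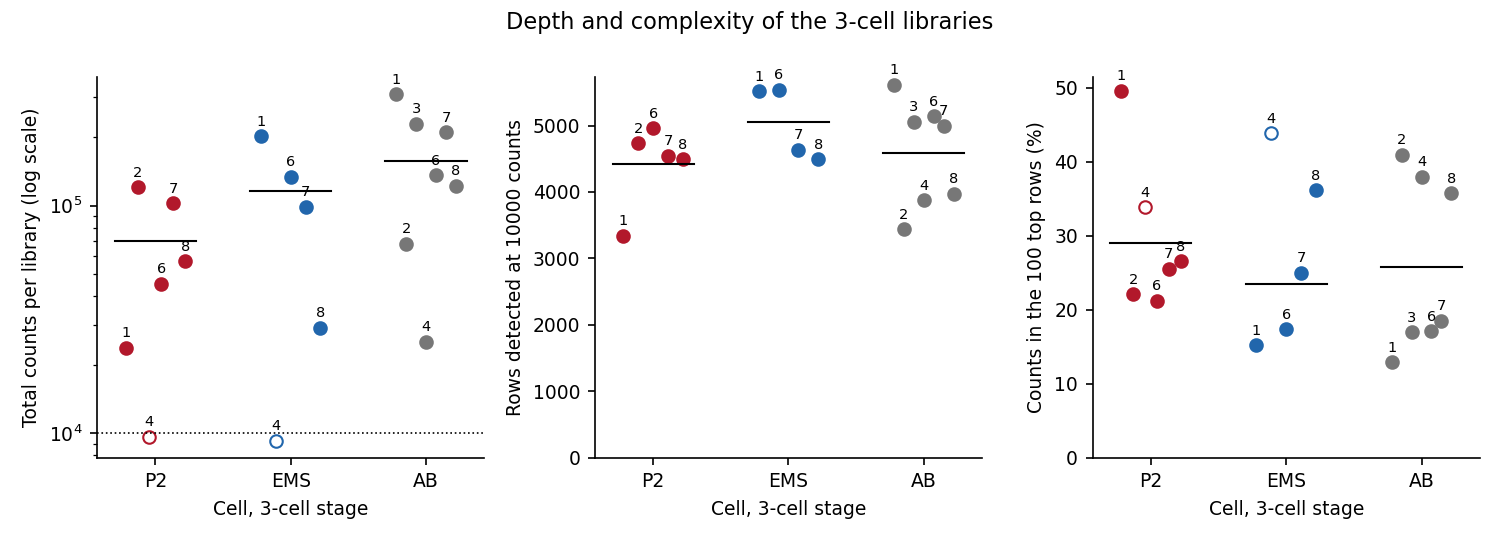
Total counts on a log scale, rows detected after thinning to 10000 counts, and percent of counts in the 100 most abundant rows, for each 3-cell library of P2, EMS and AB. Points are libraries with their replicate number, lines are means of the libraries used and open points are the 2 libraries under the minimum (dotted line). P2 replicate 1 has 3344 rows in the middle panel and 49.6% in the right panel, while the other P2 libraries lie among those of EMS and AB.

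Libraries of the same sister were little more alike than libraries of different sisters. Over the 3097 rows that passed the filter on low counts, the mean Pearson correlation of log2(CPM + 50) was 0.546 among the 10 pairs of P2 libraries and 0.524 among the 6 pairs of EMS libraries. Between P2 and EMS it was 0.478 over 20 pairs. These are correlations across rows that share library depth, and rows are not independent replicates. The mean within a cell exceeded that between the sisters by 0.0595 (exact permutation of the cell labels, two-sided p = 0.103, 0.476 after adjustment). This value moved with several single libraries. Without P2 replicate 1 it was 0.135, with an exact two-sided permutation p of 0.0286 before adjustment, and it was 0.0274 without P2 replicate 2 and 0.0315 without P2 replicate 8. Leaving out any of the other 6 libraries gave values from 0.0427 to 0.101.

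P2 replicate 1 also carried the most rows of any P2 or EMS library that were far higher in it than elsewhere. In that library 21 rows were at more than 8 times the level of every other 3-cell library, on the CPM + 50 scale, and they held 10.6% of its counts. P2 replicate 7 had 5 such rows with 1.27% of its counts, and EMS replicate 7 had 7 with 2.12%. None were found in P2 replicates 2, 6 and 8, and 2 or 3 were found in each of the other EMS libraries used. Among the AB libraries, replicate 8 had 52 such rows with 18.3% of its counts, replicate 2 had 37 with 15.9% and replicate 4 had 13 with 2.82%, so P2 replicate 1 was not the library with the most. What part these rows have in the results below was not tested. Results that were seen to turn on 1 library are given with and without it.

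No row separated P2 from EMS at a Benjamini-Hochberg adjusted p under 0.05 in edgeR's quasi-likelihood test. The count was 0 of 3097 rows tested (0%), with a smallest adjusted p of 0.259. At an unadjusted p under 0.05 there were 389 rows (12.6%), of which 170 were at the higher level in P2 (5.49%) and 219 at the higher level in EMS (7.07%). The test limma-voom also called 0. DESeq2 called 23 of the 2614 rows to which it gave an adjusted p (0.88%), each of them higher in P2. The 23 rows had an unadjusted p under 0.05 in edgeR as well, with edgeR adjusted p from 0.259 to 0.344. The P2 and EMS libraries did not overlap in 6 of them, where 0.969% of all rows tested did not overlap with P2 higher, and 18 were detected in every P2 library. The same libraries chose these 23 rows, so their edgeR p-values and lack of overlap are not separate support.

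The DESeq2 count changed when single libraries of either cell were left out. It was 1 without EMS replicate 1, P2 replicate 8 or P2 replicate 2, and it was 2 without EMS replicate 6. It was 7 without P2 replicate 6, 12 without P2 replicate 7 and 14 without EMS replicate 8. It was 52 without P2 replicate 1 and 59 without EMS replicate 7, and of the original 23 rows 20 and 23 were called there. The edgeR count stayed at 0 in each of these 9 fits. The filter on low counts was renewed in each, and from 2676 to 4414 rows were tested. The part of the filter in the DESeq2 counts was not tested.

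The lack of calls came with wide intervals, so it does not show that the differences were small. The median absolute log2 fold change between the sisters was 0.618. The estimate was more than 1 log2 unit from 0 in 902 rows (29.1%). How much of these estimates is spread between replicates was not tested. The median standard error was 0.655 and the median half-width of the 95% interval was 1.36, larger than a doubling. The common biological coefficient of variation in the 3-cell libraries was 0.681. In 30 rows every P2 library was above every EMS library (0.969% of those tested), and in 82 rows every EMS library was above every P2 library (2.65%).

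Which sister held more of the low p-values depended on how libraries were scaled. With TMM factors the median log2 fold change over all rows was -0.07, and 43.7% of the 389 rows with an unadjusted p under 0.05 were higher in P2. With DESeq2's size factors in the same edgeR test the median was 0.19, a shift of 0.263, and 67.5% of 366 such rows were higher in P2. The number of rows called stayed at 0. The 23 calls of DESeq2 were made with the latter factors. Fold changes below use TMM factors and can be read against this shift.

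**Figure D2:**
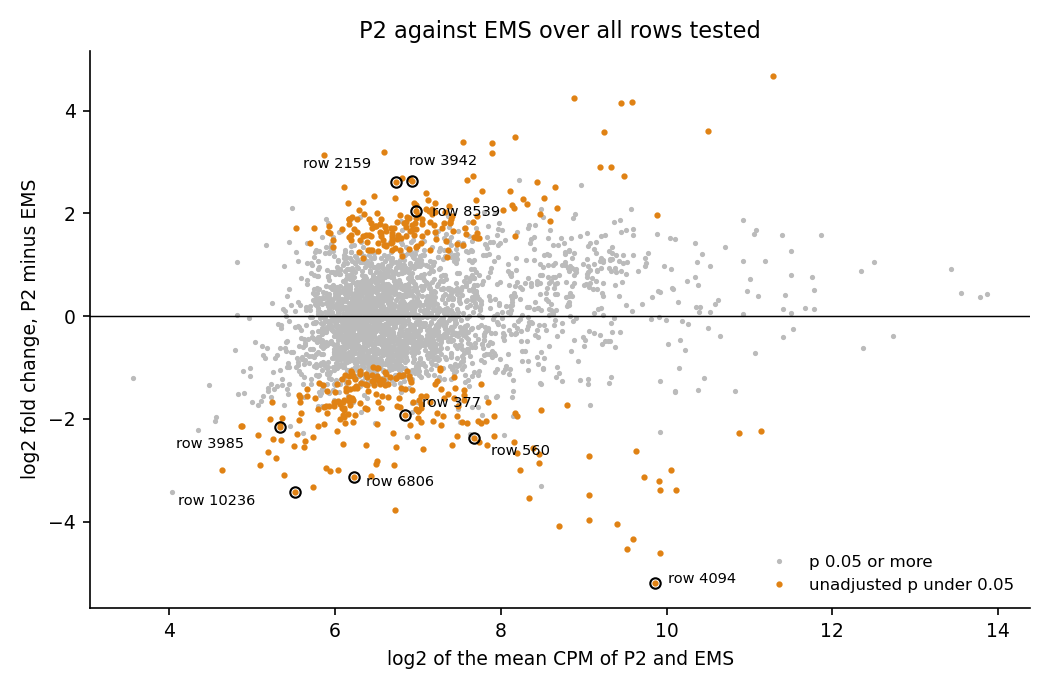
Log2 fold change of P2 over EMS against the log2 of the mean CPM of both cells, for the 3097 rows tested. Orange points have an unadjusted p under 0.05, none passes the adjusted threshold, and open rings mark the 9 rows followed by number; row 4094 lies lowest, at -5.18.

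For the most abundant transcripts the data also did not bound the difference closely. Among the 200 rows of highest mean CPM over both sisters, from 480 to 14945 CPM, no 95% interval lay within 1 log2 unit of 0. The interval excluded 0, before any adjustment, in 25 of them, and the median half-width was 1.96. These rows held 30.9% of the counts in P2 and 24.2% in EMS. Their median log2 fold change was 0.61, and 69% were at the higher value in P2, against 47.2% of all rows tested. The same libraries ranked these rows, and the part of P2 replicate 1 in this lean was not tested.

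In the 9 P2 and EMS libraries used, the highest count of a library lay between 821 and 1020, and no count in the 50 libraries read here was above 1024. The sources used here do not say whether counts were limited at such a value. If they were, the CPM and the fold changes of the most abundant rows would follow the totals of the libraries, which was not tested. Row 16054, the most abundant over both sisters, had 821, 1011, 717, 1020 and 966 counts in P2 replicates 1, 2, 6, 7 and 8. It had 1013, 976, 928 and 853 counts in EMS replicates 1, 6, 7 and 8. The counts were thus nearly level across libraries whose totals ranged from 23755 to 201221, and on the CPM scale the same row ran from 5034 in EMS replicate 1 to 34561 in P2 replicate 1. Its log2 fold change was 0.44 ± 0.77 (SE), with a 95% interval from -1.15 to 2.03. Rows 11033, 16136 and 8052 followed it in abundance and gave 0.37 ± 0.72, 0.44 ± 0.72 and 0.91 ± 0.70 (SE). These 4 rows were picked after their values were seen. Together they held 11.6% of the counts of P2 replicate 1 and 9.07% of those of EMS replicate 8, the shallowest library of each cell, but 3.20% in P2 replicate 2 and 1.88% in EMS replicate 1, the deepest.

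Of the 200 abundant rows, 27 reached 500 counts or more in a P2 or EMS library, a limit chosen after the data were seen. The median log2 fold change was 0.14 in those 27, with 55.6% at the higher value in P2, and 0.66 in the others, with 71.1% at the higher value in P2. The part that the highest value and the totals of the libraries have in these differences was not tested.

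**Figure D3:**
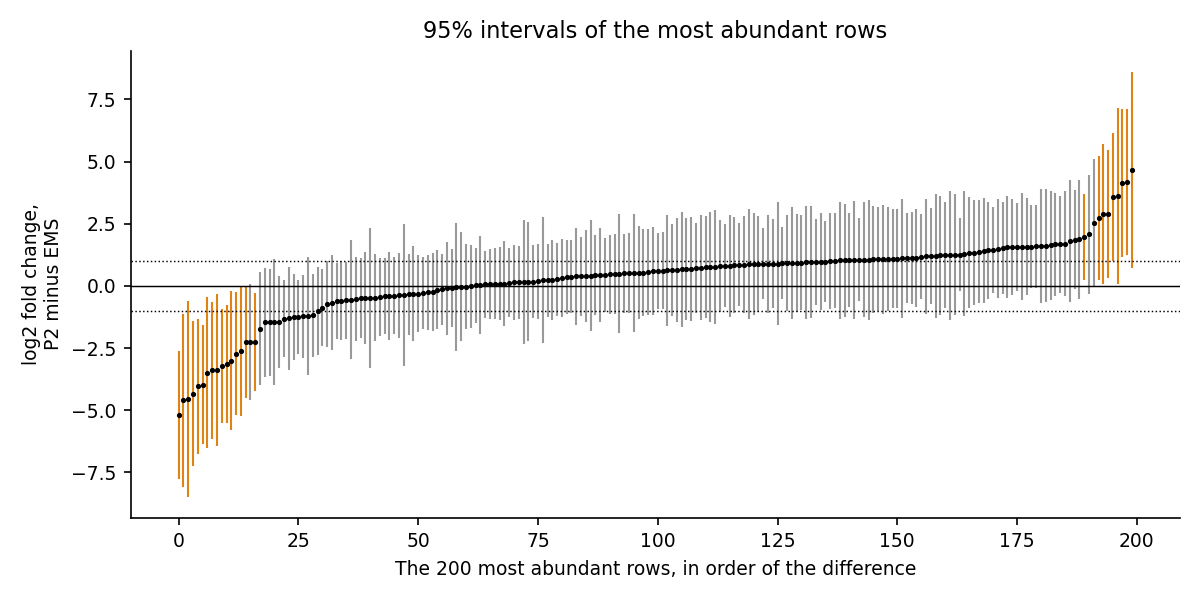
Log2 fold change of P2 over EMS with its 95% interval for the 200 most abundant rows, in order of the difference. Dotted lines mark 1 log2 unit either side of 0 and orange bars are the 25 intervals that exclude 0; no interval fits between the dotted lines.

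The rows followed by number are those with the smallest p, at most 2 in each direction per comparison, that had a count in over 50% of the libraries of the cell where they were higher. Against the sister this gave rows 2159 and 3942 (higher in P2) and rows 6806 and 4094 (higher in EMS), none past the adjusted threshold. Against AB it gave, past that threshold, rows 2159, 8539, 10236 and 3985 for P2 and rows 560 and 377 for EMS.

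Row 2159 had the smallest p of all rows between the sisters. Its levels in P2 were 42.1, 373, 221, 166.3 and 263 CPM (replicates 1, 2, 6, 7 and 8), the first being 1 count. In EMS they were 19.9, 59.8, 40.5 and 0 CPM (replicates 1, 6, 7 and 8). Of the 5 P2 libraries 4 lay above every EMS library, and P2 replicate 1 lay among them. The log2 fold change was 2.64 ± 0.56 (SE), with a 95% interval from 1.47 to 3.805, an unadjusted p of 0.000107 and an adjusted p of 0.259 in edgeR. DESeq2 gave an adjusted p of 0.00154. Against AB, where the row had 31.4 ± 21.7 CPM (SD, n = 7), row 2159 was higher in P2 by 3.04 on the log2 scale (edgeR adjusted p = 0.00597). The row passed the filter on low counts only through P2 replicates 2, 6, 7 and 8 together, and it was no longer tested when any of these was left out. When the filter was kept as with all libraries, leaving out each library in turn gave log2 fold changes over AB from 2.75 to 3.22 and edgeR adjusted p up to 0.0368. Keeping the filter held the row in the test by those same P2 values, so this range is not separate support.

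Row 2159 was also present before and after the 3-cell stage. Its level was 137.7 ± 126.6 CPM in P1 (SD, n = 7), the mother of both sisters, and 62.3 ± 60.1 CPM in AB of the same 2-cell stage (SD, n = 7). P3, a daughter of P2, had 108.1 ± 79 CPM (SD, n = 4). The 1 EMS library from the 4-cell stage had 23.7 CPM. The P1 and P3 libraries overlapped with those of AB and no difference is drawn from these means.

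Row 3942 also leaned to P2 over EMS. It had 42.1, 174.1, 199, 136.9 and 386 CPM in P2 and 19.9, 44.9, 40.5 and 0 CPM in EMS, in the replicate orders above. Again 4 of 5 P2 libraries were above every EMS library, and P2 replicate 1, at 1 count, was not. The log2 fold change was 2.61 ± 0.68 (SE), with a 95% interval from 1.20 to 4.02 and an adjusted p of 0.259 in edgeR and 0.0215 in DESeq2. AB had 59 ± 64 CPM (SD, n = 7), and the comparison of P2 with AB did not pass (log2 fold change 1.51, edgeR adjusted p = 0.144). The level was 142.6 ± 114.7 CPM in P1 (SD, n = 7) and 160.1 ± 124.9 CPM in P3 (SD, n = 4).

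Row 8539 was called higher in P2 than in AB. Its levels were 0, 216, 397, 166.3 and 263 CPM in P2 and 54.7, 67.3, 50.6 and 0 CPM in EMS. AB had 18.6 ± 19.4 CPM (SD, n = 7). P2 exceeded AB by 3.08 on the log2 scale (edgeR adjusted p = 0.0121) and EMS by 2.04 ± 0.61 (SE, edgeR adjusted p = 0.272, DESeq2 adjusted p = 0.0352). P2 replicate 1 had no count, which allows up to 126.3 CPM at its depth. Like row 2159, this row passed the filter only through the other 4 P2 libraries together. With the filter kept as with all libraries, the call against AB was lost without P2 replicate 6 (log2 fold change 2.82, edgeR adjusted p = 0.0809) and without P2 replicate 8 (3.00, edgeR adjusted p = 0.0594). At the 2-cell stage this row did not stand out in P1, with 120 ± 79.6 CPM against 226 ± 244 CPM in AB (SD, n = 7 each).

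Row 6806 was at the higher level in EMS in every library. It had 0, 33.2, 22.1, 9.78 and 0 CPM in P2 and 214, 67.3, 233 and 34.3 CPM in EMS. The sisters did not overlap, though the lowest EMS value, in replicate 8, was 1 count. The log2 fold change of P2 over EMS was -3.14 ± 0.72 (SE), with a 95% interval from -4.63 to -1.64 and an edgeR adjusted p of 0.259. AB had 110.6 ± 87.1 CPM (SD, n = 7), and P2 minus AB was -2.76 (edgeR adjusted p = 0.0714). P1 had 45.1 ± 24.3 CPM (SD, n = 7) and P3 had 24.1 ± 30.4 CPM (SD, n = 4).

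Row 10236 had a count in 1 of 5 P2 libraries. Its levels were 0, 0, 0, 19.6 and 0 CPM in P2, the positive value being 2 counts in replicate 7, and 59.6, 44.9, 40.5 and 206 CPM in EMS. All 7 AB libraries had it, at 127.2 ± 74.6 CPM (SD, n = 7). P2 minus AB was -4.49 on the log2 scale (edgeR adjusted p = 0.0204), and the value against EMS was -3.43 ± 0.96 (SE, edgeR adjusted p = 0.259). The call against AB was lost in 5 of 24 alternatives, which were a minimum total of 50000 and leaving out P2 replicate 2, 6, 7 or 8. The highest adjusted p was 0.204, without P2 replicate 2, and the log2 fold change ran from -7.19 to -3.65 over the 24. A value of 0 allows up to 126.3 CPM in P2 replicate 1, 66.2 CPM in replicate 6 and 52.6 CPM in replicate 8, each above at least 2 of the 4 EMS values, and the 206 CPM of EMS replicate 8 is 6 counts. The row was detected in all 7 P1 libraries, at 53.6 ± 40.5 CPM (SD, n = 7), and in 3 of 4 P3 libraries.

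Row 3985 had a like pattern with a weaker call. Its P2 values were 0, 41.4, 0, 9.78 and 0 CPM and its EMS values were 134.2, 29.9, 50.6 and 68.7 CPM. P2 replicate 2 was above the lowest EMS library, so the sisters overlapped. AB had 134.5 ± 75.9 CPM (SD, n = 7), and P2 was lower than AB by a log2 fold change of -3.22 (edgeR adjusted p = 0.0391). That call was lost in 16 of 24 alternatives, with edgeR adjusted p up to 0.171 where libraries were required to hold 50000 counts. Against EMS the value was -2.16 ± 0.75 (SE, edgeR adjusted p = 0.293).

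Row 4094 had the lowest log2 fold change and rested on 1 library. EMS replicate 7 had 6959 CPM, against 144.1, 97.2 and 34.3 CPM in EMS replicates 1, 6 and 8. P2 had 84.2, 66.3, 22.1, 58.7 and 35.1 CPM. The fold change of -5.18 ± 1.24 (SE, edgeR adjusted p = 0.259) became -0.88 without EMS replicate 7 (edgeR adjusted p = 0.521).

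Rows 560 and 377 set EMS apart from AB. Row 560 had 417, 531, 101.2 and 343 CPM in EMS, 0, 33.2, 132.5, 127.1 and 17.5 CPM in P2 and 14.7 ± 13.6 CPM in AB (SD, n = 7). Row 377 had 204, 344, 40.5 and 137.3 CPM in EMS, 0, 24.9, 110.4, 39.1 and 70.2 CPM in P2 and 6.35 ± 6.44 CPM in AB (SD, n = 7). In both rows no EMS library was as low as the highest AB library, a pattern of 29 of the 3097 rows (0.936%), and EMS replicate 7 lay among the P2 libraries. EMS exceeded AB by 4.21 and 4.35 on the log2 scale (edgeR adjusted p = 0.00108 for each).

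P2 lay between EMS and AB in both rows. P2 minus EMS was -2.37 ± 0.64 (SE) for row 560 and -1.93 ± 0.64 (SE) for row 377 (edgeR adjusted p = 0.259 and 0.286). P2 minus AB was 1.84 and 2.42 (edgeR adjusted p = 0.161 and 0.124). At the 2-cell stage the same rows varied widely in both cells. Row 560 had 263 ± 281 CPM in AB against 152.7 ± 165.1 CPM in P1 (SD, n = 7 each), with ranges of 4.04 to 787 and 7.17 to 404 CPM. Row 377 ran from 4.04 to 652 CPM in AB and from 0 to 444 CPM in P1. The single EMS library of the 4-cell stage had 150.3 CPM of row 560 and 55.4 CPM of row 377. Without EMS replicate 6 the call of row 377 was lost (log2 fold change 3.805, edgeR adjusted p = 0.0675), and with the filter kept as with all libraries it was not (3.78, edgeR adjusted p = 0.0428). With the filter renewed, row 377 was no longer tested without P2 replicate 6 or at a minimum total of 50000.

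**Figure D4:**
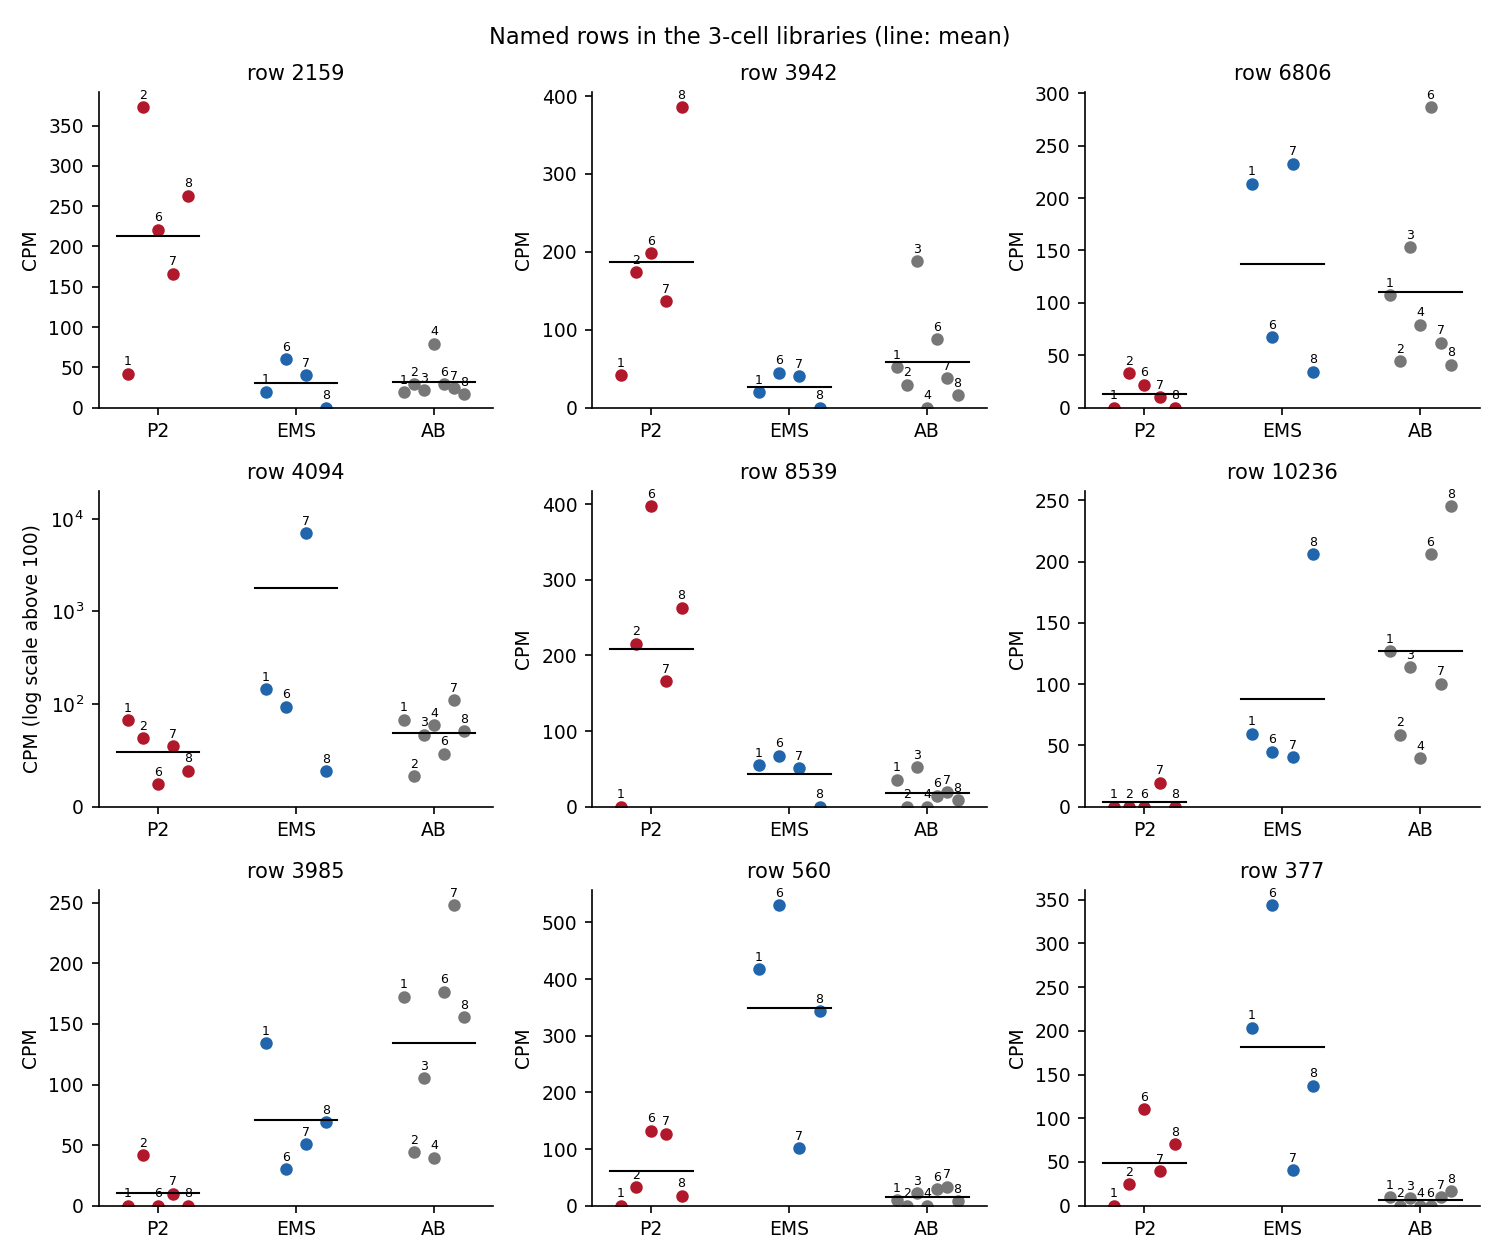
CPM of the 9 rows followed by number in each 3-cell library of P2, EMS and AB, with the replicate number above each point and the mean as a line. Row 4094 is on an axis that is logarithmic above 100 CPM, where EMS replicate 7 stands at 6959; rows 6806 and 10236 show P2 below every EMS library.

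The 2 libraries left out for depth gave little on these rows. Replicate 4 of P2 and replicate 4 of EMS both had no count of rows 2159, 3942, 4094 and 3985. Row 560 had 1 count in the P2 library and 4 in the EMS library, or 103.5 and 430 CPM. Each of the other 4 rows had at most 1 count in either library, so no order can be read from them.

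Set against AB, each sister had a few calls. P2 minus AB gave 6 called rows (0.194% of 3097), 4 higher in P2 and 2 lower, and 516 at an unadjusted p under 0.05 (16.7%). EMS minus AB gave 2 called rows (0.0646%), both higher in EMS, and 5.84% of rows had an unadjusted p under 0.05. DESeq2 called 60 (1.98%) and 5 (0.165%) rows, and limma-voom 5 (0.161%) and 2 (0.0646%). Both comparisons share the AB libraries, and whether P2 lies farther from AB than EMS does was not tested. The P2 count fell to 0 without any of P2 replicates 2, 6, 7 or 8 and was 62 without AB replicate 3, and the EMS count ran from 1 to 9 over such fits (highest without EMS replicate 7). The filter is part of this: on the same 3097 rows the P2 count was 1 without P2 replicate 6 or 8, 3 without P2 replicate 2, 4 without P2 replicate 7 and 86 without AB replicate 3, and the EMS count was 2 or 3.

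To follow transcripts that leaned to either sister into libraries that had no part in choosing them, the 50 rows with the smallest p in each direction were taken, called or not. The P2-leaning rows had an unadjusted edgeR p from 0.000107 to 0.0113 and a median log2 fold change of 2.06, and the next row outside had 0.0116. The EMS-leaning rows had an unadjusted edgeR p from 0.000250 to 0.00860 and a median of -2.10, and the next row outside also had 0.00860. In 9 and 26 of them the sisters did not overlap. These values chose the rows and support nothing.

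The P2-leaning rows were mostly at the higher value in the P cells of the stages before and after. In P1 against AB at the 2-cell stage, 46 of 50 were above 0 on the log2 scale and their median was 0.68, whereas 55.8% of all 3097 rows were above 0 and the median was 0.08. In P3 against AB at the 4-cell stage it was 47 of 50 with a median of 1.66, against 59.3% and 0.21 over all rows. None of these members was called in edgeR, where all rows gave 0 calls (0%) in P1 against AB and 3 (0.0969%) in P3 against AB. At an unadjusted p under 0.05 there were 3 and 19 members, against 5.78% and 9.17% of all rows. Members of a list can move together within a library, so they are not replicates. The P1 libraries held 36354 to 418251 counts and the 2-cell AB libraries 18453 to 247589, so cell and depth were not fully separate there.

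The P2-leaning rows did not set P3 apart from C, the daughters of P2. There 31 of 50 were positive with a median of 0.32, close to the 60.2% and 0.20 of all rows. Only 2 C libraries were used, and P3 against C shares the P3 libraries with P3 against AB. Without C replicate 3, which leaves 1 C library, 86% were positive with a median of 4.41, while 73.5% of all rows were positive with a median of 1.61.

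The EMS-leaning rows showed the other lean at the 2-cell stage, where 14 of 50 were positive in P1 against AB with a median of -0.24. Over all rows it was 55.8% with a median of 0.08. In P3 against AB it was 22 of 50 with a median of -0.13, against 59.3% and 0.21 over all rows. In P3 against C it was 30 of 50 with a median of 0.31, close to the 60.2% and 0.20 of all rows. At an unadjusted edgeR p under 0.05 there were 0 members in P1 against AB, 5 in P3 against AB and 1 in P3 against C. All rows gave 5.78%, 9.17% and 2.62%. No EMS library entered these comparisons, since the 4-cell stage had 1 EMS library.

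As shares of counts, the P2-leaning rows made up a median of 1.11% in the zygote P0 (range 0.254 to 1.55, n = 3), 0.781% in P1 (0.124 to 1.40, n = 7) and 0.350% in 2-cell AB (0.175 to 0.844, n = 7). They made up 0.794% in P3 (0.243 to 1.13, n = 4), 0.204% in 4-cell AB (0.155 to 0.372, n = 3) and 0.171% in the 1 EMS library of the 4-cell stage. The 2 C libraries held 0.363% and 0.768%, inside the range of P3. Of the 3-cell stage, AB held a median of 0.408% (0.159 to 0.773, n = 7). For reference, the libraries that chose them had medians of 1.30% in P2 and 0.238% in EMS. The medians of P0, P1 and P3 were above those of AB, but the P1 and P3 libraries overlapped with AB of their stage. The lowest P0, P1 and P3 libraries were shallow, with 0.254% in P0 replicate 1 (27151 counts), 0.124% in P1 replicate 2 (36354 counts) and 0.243% in P3 replicate 3 (26795 counts). The deepest 2-cell AB library, replicate 3 (247589 counts), held 0.844%. Its replicates 1 and 2 (18453 and 44477 counts) held 0.201% and 0.175%, but replicate 5 (45186 counts) held 0.748%. The part of depth in this spread was not tested.

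The EMS-leaning rows made up a median of 1.46% in the EMS libraries that chose them (0.686 to 2.42, n = 4) and 0.488% in the 1 EMS library of the 4-cell stage. That value lay inside the range of P1 (0.286 to 0.855, n = 7) and of 2-cell AB (0.270 to 0.978, n = 7). It was below the lowest of the 4 EMS libraries that chose the rows (0.686%) and above EMS replicate 4 of the same stage (0.387%), which did not. The 2 EMS libraries of the 5-cell stage, with 24583 and 31340 counts, held 0.370% and 0.361%. AB held a median of 0.618% at the 3-cell stage (0.286 to 0.956, n = 7) and 0.427% at the 4-cell stage (0.402 to 0.777, n = 3). The EMS library of the 4-cell stage thus lay above the median of AB of its stage and inside its range. AB of the 5-cell stage was not read, so the 5-cell EMS libraries have no AB of their stage beside them.

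In the libraries of replicate 4, which are the same cells but chose nothing, the lists did not separate the sisters. The P2-leaning rows held 0.176% of the counts of P2 (17 counts, exact binomial 95% interval 0.103 to 0.282) and 0.194% of those of EMS (18 counts, 0.115 to 0.306). The EMS-leaning rows held 0.445% in P2 (43 counts, 0.322 to 0.599) and 0.387% in EMS (36 counts, 0.271 to 0.536). The intervals overlap and cover counting error only. The P2 value is below the 1.13% of the lowest P2 library used.

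**Figure D5:**
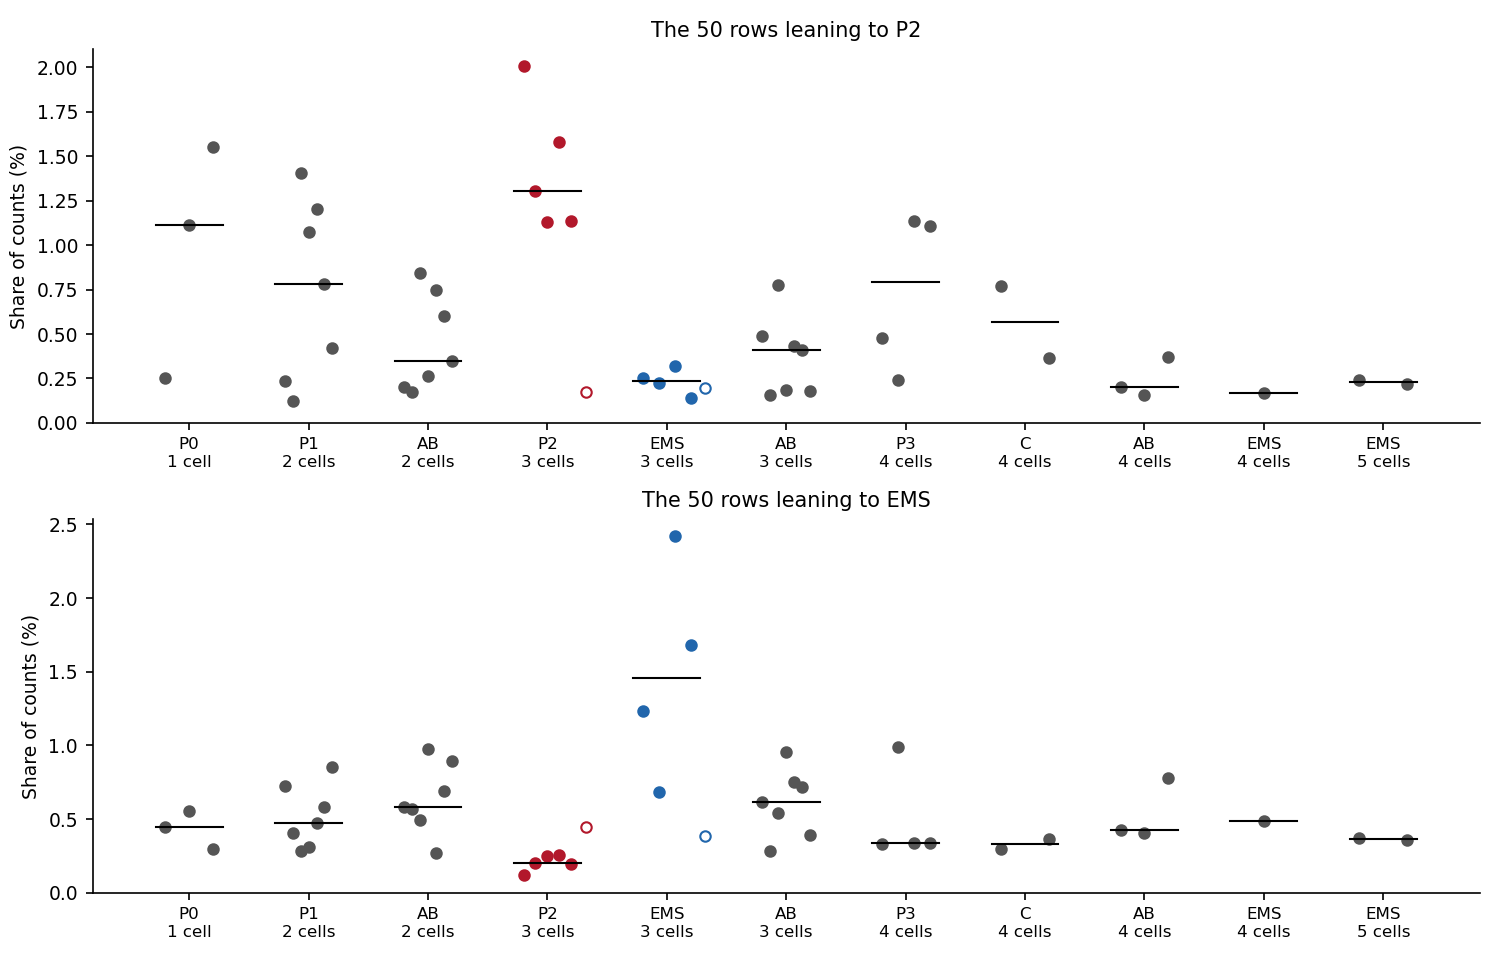
Percent of a library's counts in the 50 P2-leaning and the 50 EMS-leaning rows, by cell and stage. Points are libraries, lines are medians, and coloured points are the 3-cell P2 and EMS libraries that chose the rows; the open points of replicate 4, which did not, stand at 0.176% and 0.194% in the upper panel and 0.445% and 0.387% in the lower.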

How the data were processed

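RNA of single blastomeres was measured by CEL-Seq2. The authors deposited a table of whole-number counts per transcript contig and library; the tools named are CASAVA 1.8, Bowtie2 2.1.0 and HTSeq 0.5.4p3, per the submitters' processing notes. The settings, the build and the handling of molecular identifiers were not given in the sources used here. Rows carry no identifiers, and the deposited contig annotation of 16853 features was not used. A column belongs to the sample whose description ends in its number; the 50 columns of the 1-cell to 4-cell stages and of 5-cell EMS were read and 144 others, including 2 from the 4-cell stage whose titles read p4, were not used here. Groups came from titles.

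Totals of the 50 libraries ran from 5084 to 1217040. The 16 P2, EMS and AB libraries of the 3-cell stage with 10000 counts or more shared 1 fit of edgeR 4.0.16 (R 4.3.3, limma 3.58.1): TMM, filterByExpr (minimum count 10, minimum total 15), robust quasi-likelihood F test without a replicate block, Benjamini-Hochberg adjustment over all 3097 rows and a threshold of 0.05. The tested rows held a median of 67.8% of the counts in P2 and 59.0% in EMS. Standard errors are those that give the test's F. The 2-cell and 4-cell libraries had a fit per stage on the same rows. Single values were compared by exact two-sided permutation (Python 3.11.15, numpy 2.4.6, scipy 1.17.1), with a smallest possible p of 0.00794 for 5 against 4 libraries. Alternatives were DESeq2 1.42.0, its size factors in edgeR, limma-voom, no filter, other minimum totals, thinning, the replicate block, P2 and EMS alone, and leaving out each library, with the filter renewed or kept. The scripts were tested on simulated data. The closest replicate pairs differed by a chi-square per degree of freedom of 3.48 in P2 and 4.12 in EMS, so no library was treated as a duplicate.

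Numbered rows followed a rule: the 2 higher and 2 lower rows of smallest p in each comparison, with a count in over 50% of the libraries of the cell where they were higher, and past the threshold in the comparisons with AB. The cells compared, the lists and the rules were chosen with earlier results of these data known.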

Additional observations from a re-analysis of the deposited data

Results flagged for a closer look

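Of 34 groups of 4 to 7 libraries examined, 6 held a library that stood far from the rest by Dixon's criterion. For normally distributed values chance alone meets it in about 1 of 20 groups. Counts near 0 are not so distributed, and the numbered rows were picked from these libraries, so the 6 cannot be set against that rate. A single positive value among zeros always meets it. Row 4094 was at 6959 CPM in EMS replicate 7, and its fold change between the sisters rests on that library. Row 10236 was at 19.6 CPM in P2 replicate 7, where the other 4 P2 libraries had no count, and at 206 CPM in EMS replicate 8, the shallowest EMS library. Row 3985 was at 41.4 CPM in P2 replicate 2. The 100 most abundant rows held 49.6% of the counts of P2 replicate 1. The EMS-leaning rows held 0.989% of the counts of P3 replicate 3 at the 4-cell stage, against 0.331% to 0.339% in the other 3 P3 libraries.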

How the results depend on the processing

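The edgeR count of rows called between P2 and EMS was 0 under each alternative but 1: without the filter on low counts 1 of 16826 rows was called, lower in P2. DESeq2 called 23. P2 minus AB (6 rows) gave 10 without the filter, 60 with DESeq2, 2 at a minimum total of 50000, 3 with no minimum and 0 after thinning to 10000 counts, where none of the numbered rows passed the filter. EMS minus AB (2 rows) gave 25, 5, 1, 4 and 1 under the same settings, and 6 without P2 replicate 1 and EMS replicate 8, a choice made after seeing the data. Leaving out 1 library at a time gave 0 to 62 rows in P2 minus AB and 1 to 9 in EMS minus AB, and on the same 3097 rows, a setting added after seeing the data, 1 to 86 (86, 22, 16 and 11 without AB replicates 3, 8, 4 and 2, and 3 without AB replicate 1, 6 or 7) and 2 to 3. The difference in mean log2 total (-0.42) changed sign without P2 replicate 4 (0.0139) or EMS replicate 1 (0.0181) and ran from -1.09 to 0.0181 over such fits. Likeness ran from 0.0274 to 0.135. Of the EMS-leaning rows, 28% were positive in P3 against AB with lists of 25 instead of 44%, 28.3% to 56% when 1 library was left out, and 16% to 40% in P1 against AB. The P2-leaning rows stayed above the share of all rows in P1 against AB (84% to 97.7%) and in P3 against AB (82% to 96%), and ran from 50% to 86% in P3 against C. The lists and these settings were added after seeing the data. The fold changes of the 9 numbered rows kept their direction in 333 of 333 values, and in 240 of 240 on the same 3097 rows. The 333 values exist only where a row passed the filter. Rows 2159 and 8539 had none without P2 replicate 2, 6, 7 or 8, and other rows had gaps too. Between the sisters, row 4094 had 15 values, row 2159 had 20, row 8539 had 21 and row 377 had 22, against 25 for rows 560 and 3942. Beyond the filter, the cause of these changes was not tested.

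The replicate numbers were not treated as pairs. Of 4 pairs of P2 and EMS libraries with the same number, 1 had deviations correlated above 0.1 (median 0.0255, against -0.01 among other pairs). The EMS library of the same number was the closest for 2 of these 4 P2 libraries. These values do not settle whether a number marks an embryo. With a replicate block 0 rows were called between P2 and EMS, 25 in P2 minus AB and 2 in EMS minus AB. Within numbers, P2 libraries had fewer rows at 10000 counts in 4 of 4 pairs, with differences from -2169 to -5 and a mean of -711 (exact sign-flip permutation test, p = 0.125, the smallest it can give). The mean was -225 without the pair of replicate 1.

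Depth limits the numbered rows: in P2 replicate 1 and EMS replicate 8 most of their values are 0 or a few counts, and with 5 and 4 libraries the median interval spans 1.36 log2 units to either side.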
